A study of Mus musculus with 16 samples.

Results

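The genes described here are those of the mouse major histocompatibility complex (MHC) and of the machinery that loads its molecules with peptide. They are all gene symbols that begin with H2-, together with B2m, Cd74, Ciita, Tap1, Tap2, Tapbp, Psmb8, Psmb9, Psmb10 and Nlrc5. The rule found 42 of the 24934 distinct symbols in the deposited tables, and Psmb9 matched no row and was not analysed here. Total RNA of liver, of brown fat and of 2 white fat depots, the inguinal and the epididymal, had been sequenced from 24-week-old C57BL/6 mice that received either vehicle or sunitinib (Sutent). Sunitinib is an oral drug that blocks several receptor tyrosine kinases, among them Csf1r, the receptor that macrophages depend on, and the receptors of the VEGF and PDGF families. Each tissue had 2 vehicle and 2 sunitinib libraries, which gives 16 libraries, and the series names 8 mice with 4 per treatment. No further allele or agent is named, and the labels do not give the dose, route or length of treatment. Since no label ties a library to a mouse, each p-value measures only the spread between these libraries.

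MHC class I molecules stand on almost all nucleated cells and show peptides from inside the cell to CD8+ T cells. The proteasome, with its interferon-induced subunits Psmb8 and Psmb10, cuts these peptides, the transporter Tap1 and Tap2 carries them into the endoplasmic reticulum, tapasin (Tapbp) helps to load them, and B2m is the light chain of the finished molecule. MHC class II molecules are made mainly by dendritic cells, macrophages and B cells, and show peptides from engulfed material to CD4+ T cells. Their chains travel with the invariant chain Cd74, H2-DM exchanges the remnant of that chain for peptide, and H2-O, which is known best from B cells, holds H2-DM back. Ciita is the transactivator of the class II genes and Nlrc5 that of the class I genes. In adipose tissue the class II genes are best known from the resident macrophages and dendritic cells.

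The class II genes share a promoter module, with an X box bound by the RFX factors and a Y box, an inverted CCAAT sequence bound by NF-Y, on which Ciita is recruited. The following stretches show how this module lies in 5 class II genes that the results turn on. They are the 180 bases before the gene start in RefSeq (GRCm38.p6), 5′ to 3′ on the strand of the gene, and capitals mark the X box core AACNNATG and the Y box TGATTGG.
H2-Aa (chr17:34287824-34288003, minus strand): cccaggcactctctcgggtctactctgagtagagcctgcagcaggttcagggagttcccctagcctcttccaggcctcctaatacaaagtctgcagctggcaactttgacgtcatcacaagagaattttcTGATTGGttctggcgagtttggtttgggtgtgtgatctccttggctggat
H2-Eb1 (chr17:34305687-34305866, plus strand): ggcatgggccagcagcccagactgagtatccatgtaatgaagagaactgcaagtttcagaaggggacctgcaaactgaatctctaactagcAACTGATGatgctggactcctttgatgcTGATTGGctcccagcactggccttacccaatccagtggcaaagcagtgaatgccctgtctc
H2-DMb1 (chr17:34153011-34153190, plus strand): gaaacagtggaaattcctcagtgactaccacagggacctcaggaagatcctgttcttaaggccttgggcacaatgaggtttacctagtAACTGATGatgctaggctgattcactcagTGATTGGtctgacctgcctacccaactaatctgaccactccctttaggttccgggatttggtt
H2-DMb2 (chr17:34145069-34145248, plus strand): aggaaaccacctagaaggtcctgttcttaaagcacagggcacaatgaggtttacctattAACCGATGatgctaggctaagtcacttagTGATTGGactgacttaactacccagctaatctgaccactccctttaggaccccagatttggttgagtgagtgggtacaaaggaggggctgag
H2-Ob (chr17:34238725-34238904, plus strand): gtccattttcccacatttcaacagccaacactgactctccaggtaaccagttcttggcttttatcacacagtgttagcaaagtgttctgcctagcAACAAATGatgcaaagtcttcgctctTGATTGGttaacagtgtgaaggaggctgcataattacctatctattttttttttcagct
H2-Eb1, H2-DMb1, H2-DMb2 and H2-Ob hold both motifs in the same order, with the X box core upstream, and H2-Aa holds the Y box at 50 to 44 bases before its start. Of 8 class II promoters at hand, 5 had the X box core and 7 the Y box, searched on both strands. Among all 32851 promoters of the same length, 5.40% had the X box core, 6.31% the Y box and 0.371% both. The motifs were chosen after these promoters had been read, so the counts describe them and are no test, and a match is not a bound site.

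Class I promoters are known for a kappa B site and an interferon response element. The promoters of both classical class I heavy chains and of B2m are shown to set them beside the class II module, with capitals on the kappa B letters GGGGATTCC, an interferon response motif AANNGAAA, which can lie on either strand, and the Y box.
H2-K1 (chr17:34000348-34000527, minus strand): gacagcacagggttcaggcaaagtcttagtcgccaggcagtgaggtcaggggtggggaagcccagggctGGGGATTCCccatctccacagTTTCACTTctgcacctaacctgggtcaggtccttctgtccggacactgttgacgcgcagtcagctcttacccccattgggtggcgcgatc
H2-D1 (chr17:35262914-35263093, plus strand): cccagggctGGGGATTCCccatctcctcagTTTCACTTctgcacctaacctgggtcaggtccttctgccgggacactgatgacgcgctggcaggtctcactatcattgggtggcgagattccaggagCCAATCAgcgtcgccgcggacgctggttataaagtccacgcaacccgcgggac
B2m (chr2:122147507-122147686, plus strand): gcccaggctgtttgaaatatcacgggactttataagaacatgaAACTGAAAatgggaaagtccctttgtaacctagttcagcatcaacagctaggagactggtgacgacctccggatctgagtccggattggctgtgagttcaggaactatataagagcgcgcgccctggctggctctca
H2-K1 and H2-D1 hold the kappa B letters followed by the interferon motif on the opposite strand, and H2-D1 also has a Y box on that strand. The kappa B letters stood in 4 of 18 class I promoters, in 0 of 8 class II promoters and in 0.143% of all promoters. The interferon motif stood in 10 of the 18 and 0 of the 8, and in 15.1% of all promoters. The letters AACNNATG stood in 0 of the 18 and the Y box in 7. Those X box letters were chosen after the class II promoters had been read, and H2-Aa lacks them too. Their absence therefore does not show that a class I promoter has no X box. No 2 of these motifs overlap in the stretches printed.

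The values are regularized log2 expression (rlog) from 1 table per tissue, so a level is compared only within a tissue, and differences are sunitinib minus vehicle ± SE from limma with 2 libraries per group. Marker genes fitted the labelled tissues, with Ucp1 between 16.46 and 16.93 in brown fat, Adipoq between 15.93 and 16.21 in epididymal fat and Alb between 20.13 and 20.33 in liver. A pair of libraries stood apart. Inguinal sunitinib replicate 2 had the highest summed level of B cell markers among the inguinal libraries, and epididymal sunitinib replicate 1 carried Crisp1, an epididymal secretory gene, at 12.66 against 5.98 to 6.21 in the other 3 libraries. Members with a mean rlog of at least 3 in a tissue were tested, which left 26 of 39 in brown fat, 31 of 40 in epididymal fat, 34 of 42 in inguinal fat and 30 of 36 in liver. The members nearest this limit were H2-Ke2 (3.13) and H2-Ke6 (2.94) in brown fat, H2-Oa (3.18) and H2-T22 (2.79) in epididymal fat, H2-Q2 (3.14) and H2-Ke6 (2.0) in inguinal fat, and H2-Ob (3.03) and H2-Ke2 (2.45) in liver, the first inside and the second outside. All told, 36 members were tested in at least 1 tissue and 24 in all 4.

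In epididymal white fat, the class II genes read lower in the sunitinib libraries. All 10 tested class II genes (of 11 in the table) had both sunitinib libraries below both vehicle libraries, where 26.8% of all genes tested had that order. Their differences ran from −1.14 to −0.04 with a median of −0.85, against a median of 0.0089 over all genes, and the median gene stood at 55.3% of its vehicle level. After adjustment H2-DMb1 and H2-Eb1 fell, so that 2 of 10 class II genes passed, where 2.06% of all genes tested passed as lower and 0.277% as higher. Before adjustment 9 of the 10 had a limma p below 0.05 as lower, where 1849 of all 15526 genes tested did. In whole tissue, fewer cells of a type and less RNA per cell cannot be told apart.

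Among the class II chains, H2-Eb1, the beta chain of H2-E, read 12.61 and 12.50 in the vehicle libraries and 11.40 and 11.76 in the sunitinib libraries. It fell by 0.97 ± 0.13, to 0.511 times its vehicle level (adjusted p = 0.0447). The alpha chain of H2-A, H2-Aa, read 13.18 and 13.02 under vehicle and 11.89 and 12.34 under sunitinib, a difference of −0.99 ± 0.17 (adjusted p = 0.0607). Its partner H2-Ab1 read 12.51 and 12.36 under vehicle and 11.23 and 11.72 under sunitinib, a difference of −0.96 ± 0.17 (adjusted p = 0.0691). In each of these 3 chains both sunitinib libraries lay below both vehicle libraries and replicate 1 was the lowest of the 4. The spread between the sunitinib pair was wider than that between the vehicle pair, and the differences of H2-Aa and H2-Ab1 did not pass. H2-Eb2, a further beta chain, was below the limit in this tissue, with a mean of 2.45.

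The genes that load class II molecules had the same order of libraries. H2-DMb1, a beta chain of H2-DM, had the largest difference of the members in this tissue, at 9.14 and 9.22 in the vehicle libraries and 7.87 and 8.21 in the sunitinib libraries. It fell by 1.14 ± 0.12, to 0.453 times vehicle (adjusted p = 0.0287). The second beta chain gene H2-DMb2 read 8.99 and 9.13 under vehicle and 8.06 and 8.46 under sunitinib (−0.80 ± 0.15, adjusted p = 0.0724). The alpha chain gene H2-DMa read 9.29 and 9.20 under vehicle and 8.32 and 8.72 under sunitinib (−0.72 ± 0.14, adjusted p = 0.0815). H2-DMb1 and H2-DMb2 are close copies, and 22.7% of the 50-base words of H2-DMb1 also stand in another gene, mostly H2-DMb2, so reads may have been split between them. Cd74, the invariant chain, read 13.60 and 13.49 in the vehicle libraries and 12.44 and 12.83 in the sunitinib libraries (−0.91 ± 0.15, adjusted p = 0.0579). The chains of H2-O had smaller differences: H2-Ob read 5.27 and 5.18 under vehicle and 4.98 and 5.07 under sunitinib (−0.20 ± 0.06). H2-Oa read 3.21 and 3.19 under vehicle and 3.16 and 3.15 under sunitinib (−0.04 ± 0.02). Neither passed, and the H2-O genes were the 2 class II genes with the smallest differences. They also had the lowest mean rlog of the tested class II genes, at 3.18 for H2-Oa and 5.13 for H2-Ob. The rlog scale shrinks differences most where reads are few, so their values may understate a change. The transactivator Ciita read 7.94 and 7.87 under vehicle and 7.03 and 7.45 under sunitinib (−0.67 ± 0.15, adjusted p = 0.1003), with groups that did not overlap.

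**Figure D1:**
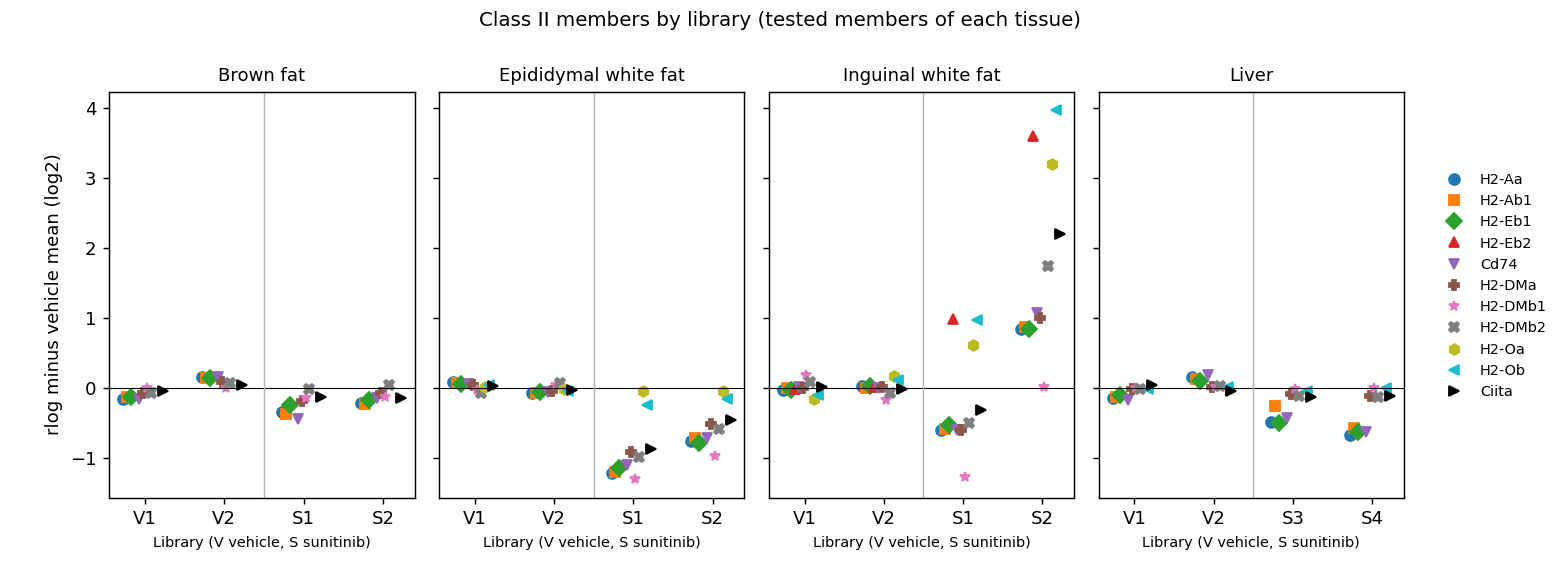
Each panel is a tissue and each point is a class II gene in 1 library, given as log2 rlog level minus the mean of the vehicle pair (vertical axis), with vehicle libraries on the left of the line and sunitinib libraries on the right. In epididymal fat the points of both sunitinib libraries lie below 0, with medians of −1.05 and −0.66, whereas in inguinal fat the sunitinib libraries have medians of −0.54 and 1.07.

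The class I genes of epididymal fat had smaller differences. Of 21 tested class I, loading and immunoproteasome genes (of 27 in the table), 16 lay below vehicle and 1 above without overlap, against 26.8% and 27.0% of all genes. Their median difference was −0.21, at 86.4% of the vehicle level, and 1 of 21 passed as lower, where 2.06% of all genes did. H2-K1, a classical class I heavy chain, read 14.55 and 14.54 in the vehicle libraries and 13.74 and 14.00 in the sunitinib libraries (−0.67 ± 0.12, adjusted p = 0.0656). The other classical chain, H2-D1, read 12.60 and 12.63 under vehicle and 12.31 and 12.27 under sunitinib (−0.33 ± 0.07, adjusted p = 0.0833). B2m read 14.48 and 14.38 under vehicle and 14.09 and 14.12 under sunitinib (−0.33 ± 0.09, adjusted p = 0.145). All 3 were lower in both sunitinib libraries than in either vehicle library, and H2-K1 had the widest gap of the class I genes.

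Of the immunoproteasome subunits, Psmb10 fell. It read 10.0002 and 9.96 in the vehicle libraries and 9.53 and 9.51 in the sunitinib libraries, a fall by 0.46 ± 0.06 to 0.728 times vehicle (adjusted p = 0.0372). Both pairs of libraries lay close together and far from each other. Psmb8 read 8.99 and 8.95 under vehicle and 8.51 and 8.67 under sunitinib (−0.38 ± 0.08, adjusted p = 0.0853). Tapasin (Tapbp) read 12.23 and 12.08 under vehicle and 11.68 and 11.78 under sunitinib (−0.42 ± 0.08, adjusted p = 0.0804). The transporter genes differed less: Tap1 read 8.83 and 8.92 under vehicle and 8.61 and 8.69 under sunitinib (−0.22 ± 0.07). Tap2 read 9.21 and 9.17 under vehicle and 9.12 and 9.10 under sunitinib (−0.08 ± 0.06), with adjusted p-values of 0.177 and 0.502. The class I transactivator Nlrc5 read 9.03 and 9.14 under vehicle and 8.84 and 9.03 under sunitinib (−0.15 ± 0.09, adjusted p = 0.403), and its groups were separated narrowly.

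The 12 other class I genes tested there, which include the Q, T and M region genes, ranged from −0.30 ± 0.07 for H2-T23 to 0.14 ± 0.05 for H2-Q2. H2-T23, which encodes Qa-1, read 10.13 and 10.12 under vehicle and 9.76 and 9.90 under sunitinib (adjusted p = 0.116). H2-Q2 was the 1 class I gene above vehicle without overlap, at 3.63 and 3.65 under vehicle and 3.72 and 3.84 under sunitinib (adjusted p = 0.212). None of the 12 passed in limma. Unadjusted, 4 had a p below 0.05 as lower and 1 as higher, where 1849 and 1264 of all 15526 genes did. Many of the other class I genes are near copies of each other. Other genes share 26.4% of the 50-base words of H2-Q7, 32.0% of H2-Q6, 32.9% of H2-T10 and 34.5% of H2-T22, so their values are uncertain, while H2-K1 shares 9.63% and H2-D1 12.8%.

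**Figure D2:**
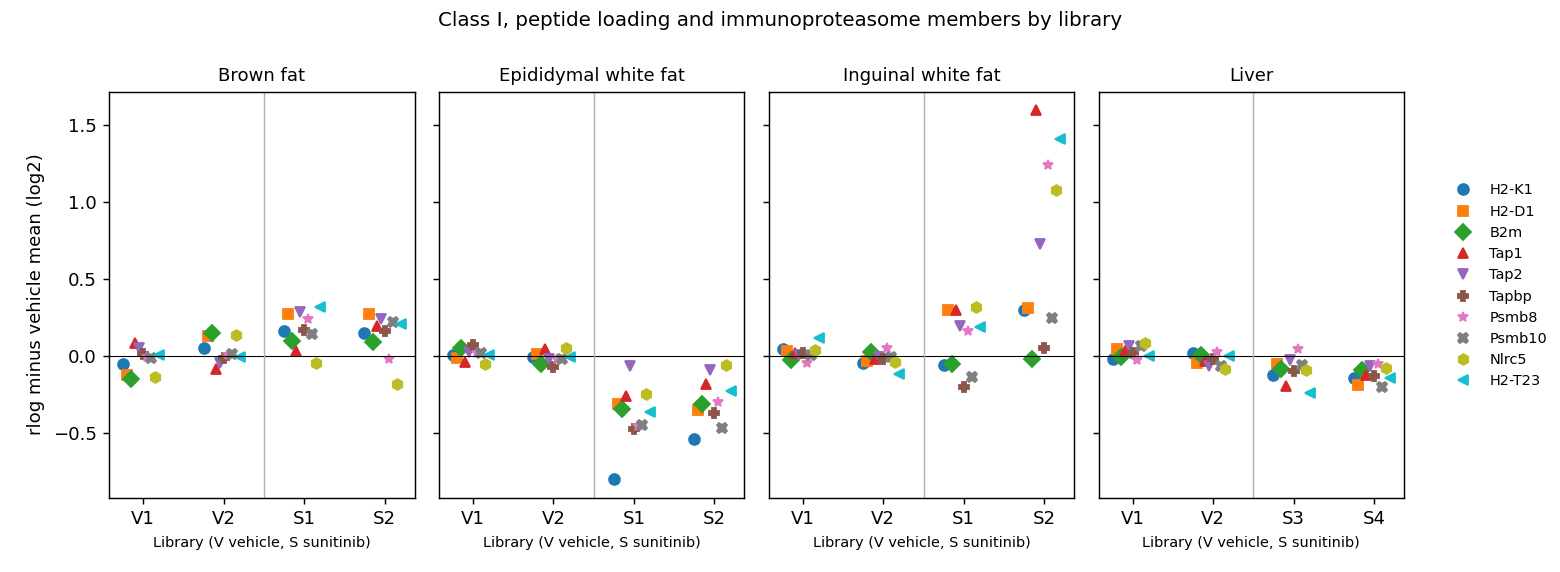
The same plot for class I heavy chain, light chain, loading, immunoproteasome and regulator genes, as log2 rlog level minus the vehicle mean in each library of the 4 tissues. In epididymal fat H2-K1 lies lowest, at −0.80 and −0.54 in the sunitinib libraries, and in inguinal fat Tap1 reaches 1.59 in sunitinib replicate 2.

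Most markers of macrophages and dendritic cells were lower in the same libraries. The summed level of the tested class II genes, as log2 of the sum of unlogged rlog values, was 15.13 and 15.01 under vehicle and 13.91 and 14.33 under sunitinib. The same sum over the 11 macrophage markers that matched a row, of 13 symbols listed (Adgre1 and its older symbol Emr1 were not analysed here), was 15.48 and 15.38 against 14.67 and 14.76. Of these markers 10 were below vehicle without overlap, where 26.8% of all genes were, and 6 fell, where 2.06% did. Among the 6 were Cd68, by 1.32 ± 0.09, and Csf1r, the receptor for colony-stimulating factor 1, by 0.81 ± 0.07. The remaining 1 of the 11 went the other way, at 0.24 and above vehicle without overlap, where 27.0% of all genes were, and did not pass. The median difference of the 11 was −0.62. The sum over 10 dendritic cell markers was 11.52 and 11.59 against 10.84 and 10.78. Of the 10, 9 were below vehicle without overlap, where 26.8% of all genes were, and 3 fell, where 2.06% did. Their median difference was −0.30, and the largest fall was that of Itgax, the CD11c chain, by 1.53 ± 0.08. B cell markers summed to 7.79 and 7.78 against 7.80 and 7.81, and T and NK cell markers to 7.33 and 7.36 against 7.34 and 7.39. In limma 0 of 6 tested B cell markers and 0 of 7 tested T and NK markers passed. Unadjusted, 1 B cell marker had a p below 0.05 as lower and 2 as higher, and 1 T and NK marker as lower. Of all 15526 genes 1849 did as lower and 1264 as higher. The part of the macrophage and dendritic cell markers in the class II difference was not tested. Epithelial and epididymal markers summed to 9.76 and 10.5996 against 13.26 and 11.72, and were highest in replicate 1, the library in which the class II genes were lowest. Of the 7 tested, 6 lay above vehicle without overlap, where 27.0% of all genes did, and 1 passed as higher, where 0.277% did. Their median was 1.58 above the vehicle mean in replicate 1 and 1.43 in replicate 2. Leaving out replicate 1 therefore does not take their rise away, and their part was not tested. Without replicate 1 the class II median was −0.66. Without it H2-DMb1 fell by 0.98 (adjusted p = 0.0181), H2-Eb1 by 0.79 (adjusted p = 0.0279) and Psmb10 by 0.47 (adjusted p = 0.0384).

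**Figure D3:**
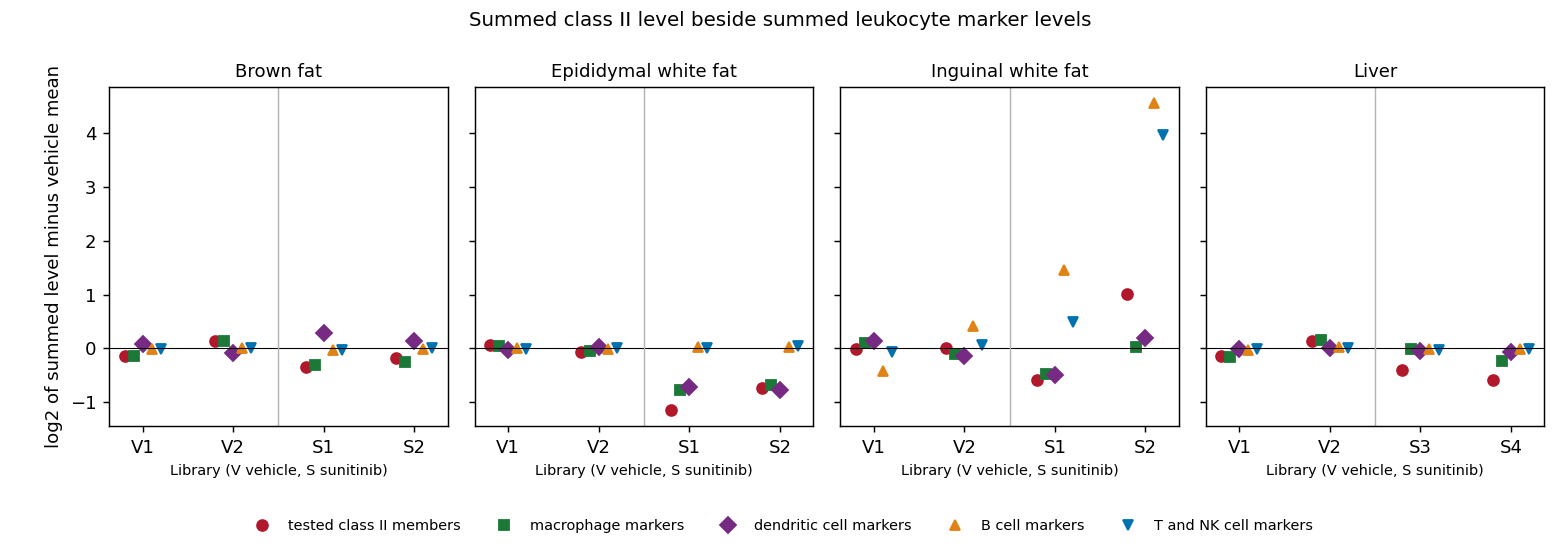
Each point is the log2 of a summed level minus its vehicle mean in 1 library, for the tested class II genes and 4 lists of leukocyte markers, in the 4 tissues. In epididymal fat the class II, macrophage and dendritic cell points of both sunitinib libraries lie below 0 and the B, T and NK cell points near 0, while in inguinal sunitinib replicate 2 the B cell sum reaches 13.53 against 8.55 and 9.38 under vehicle.

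The calls in epididymal fat depended on single libraries. Without vehicle replicate 1 or without vehicle replicate 2, 0 members passed in limma, as did 0% of all genes in either direction, and the smallest adjusted p of a member was 0.239 and 0.285. Without sunitinib replicate 1, 8 of 31 members passed as lower, where 2.52% of all genes did, and H2-Q2 as higher, where 3.87% did. Without sunitinib replicate 2, 11 of 31 passed as lower, where 3.09% of all genes did. In each of these fits the lone library was assumed to vary like the pair of the other group. H2-Eb1 also missed the threshold without a filter on low values (adjusted p = 0.0669), after quantile normalization (0.0540), without a variance trend (0.0538) and in 1 fit over the 4 tissues (0.145). Psmb10 missed it without the filter (0.0672) and H2-DMb1 in the fit over the 4 tissues (0.0695).

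In inguinal white fat the sunitinib libraries went apart, and no member passed. In limma 0 of 34 tested members passed in either direction, as did 0% of all genes tested as lower and 0% as higher. An unadjusted p below 0.05 was found for 0 members as lower and 3 as higher, and for 1313 and 578 of all 14916 genes. The smallest adjusted p of a member was 0.341, for H2-Q10. The median difference of the 11 tested class II genes was 0.24, but the libraries' own medians were −0.54 in replicate 1 and 1.07 in replicate 2. Without overlap, 0 class II genes lay below vehicle and 3 above, and 1 class I gene lay below and 15 above, against 26.4% of all genes below and 24.0% above. B cell markers summed to 8.55 and 9.38 under vehicle and 10.43 and 13.53 under sunitinib, and T and NK cell markers to 7.62 and 7.74 against 8.17 and 11.66. Macrophage markers summed to 14.54 and 14.33 against 13.97 and 14.46, which overlap. All 11 tested macrophage markers had negative differences, with a median of −0.40, and 0 passed. Of the 11, 7 lay below vehicle without overlap, where 26.4% of all genes did. Dendritic cell markers summed to 11.02 and 10.75 against 10.38 and 11.07, with 5 of 10 negative and a median difference of 0.02. The part of these cells in the member values was not tested.

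The main class II chains lay below vehicle in inguinal replicate 1 and above it in replicate 2. H2-Aa read 12.69 and 12.75 under vehicle and 12.11 and 13.57 under sunitinib. H2-Ab1 read 11.96 and 11.96 under vehicle and 11.37 and 12.84 under sunitinib. H2-Eb1 read 12.18 and 12.24 under vehicle and 11.67 and 13.05 under sunitinib. Cd74 read 13.21 and 13.20 under vehicle and 12.60 and 14.27 under sunitinib. The vehicle libraries lay close together in each of these 4 genes, and the sunitinib libraries lay on either side of them. Ciita read 7.84 and 7.82 under vehicle and 7.51 and 10.03 under sunitinib, so that replicate 2 stood 2.20 above the vehicle mean and replicate 1 0.32 below it. H2-DMa read 8.86 and 8.87 under vehicle and 8.25 and 9.86 under sunitinib. H2-DMb2 read 8.90 and 8.75 under vehicle and 8.32 and 10.57 under sunitinib, with the same order. H2-DMb1 was the exception, at 8.77 and 8.42 under vehicle and 7.32 and 8.61 under sunitinib: replicate 1 was 1.27 below the vehicle mean and replicate 2 stood 0.01 above it.

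The H2-O chains and H2-Eb2 were above vehicle in both inguinal sunitinib libraries. H2-Ob read 6.25 and 6.46 in the vehicle libraries and 7.33 and 10.33 in the sunitinib libraries (2.48 ± 1.05, adjusted p = 0.420), the largest difference of any member in any tissue. H2-Eb2 read 4.10 and 4.13 under vehicle and 5.10 and 7.72 under sunitinib (2.30 ± 0.91, adjusted p = 0.404). H2-Oa read 4.13 and 4.46 under vehicle and 4.91 and 7.50 under sunitinib (1.91 ± 0.91, adjusted p = 0.452). All 3 ordered the libraries as the B cell sum did for the sunitinib pair, with replicate 2 the highest. None of these differences passed, and the sunitinib libraries lay further from each other than replicate 1 from vehicle.

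Class I genes of inguinal fat had a median difference of 0.51, with library medians of 0.19 in replicate 1 and 0.76 in replicate 2. The classical chain H2-D1 was above vehicle in both sunitinib libraries by a like amount, at 12.67 and 12.61 under vehicle and 12.94 and 12.95 under sunitinib (0.30 ± 0.11, adjusted p = 0.385). H2-K1 read 14.33 and 14.24 under vehicle and 14.22 and 14.58 under sunitinib. B2m read 14.30 and 14.36 under vehicle and 14.28 and 14.31 under sunitinib, so that neither was separated from vehicle. Tap1 read 8.97 and 8.93 under vehicle and 9.25 and 10.55 under sunitinib. Tap2 read 9.16 and 9.14 under vehicle and 9.35 and 9.88 under sunitinib. Nlrc5 read 9.44 and 9.36 under vehicle and 9.72 and 10.48 under sunitinib. These 3 had both sunitinib libraries above vehicle, with replicate 2 the higher. Psmb8 read 8.91 and 9.01 under vehicle and 9.12 and 10.19 under sunitinib. Psmb10 read 9.69 and 9.67 under vehicle and 9.54 and 9.93 under sunitinib. Tapbp read 11.84 and 11.81 under vehicle and 11.62 and 11.88 under sunitinib. H2-Q10, whose product is known as a class I protein secreted by liver, had the reverse order of sunitinib libraries, at 9.03 and 9.23 under vehicle and 10.54 and 9.82 under sunitinib (1.05 ± 0.27). The 6 hepatocyte markers summed to 13.50 and 13.75 under vehicle, 14.68 in replicate 1 and 13.68 in replicate 2. Their sum, which the most abundant markers dominate, was highest in replicate 1, as was H2-Q10. The median hepatocyte marker had the other order, at −0.08 in replicate 1 and 0.25 in replicate 2 against the vehicle mean. The part of these markers was not tested. The other class I gene with a large spread was H2-Q7, at 7.64 and 7.46 under vehicle and 8.37 and 10.35 under sunitinib. H2-M2 read 4.29 and 3.78 under vehicle and 4.29 and 7.33 under sunitinib. Both were highest in replicate 2.

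Leaving out inguinal sunitinib replicate 2 gave another picture, from a fit in which 1 sunitinib library was set against 2 vehicle libraries and was assumed to vary like them. The class II median became −0.54, with 8 genes lower and 3 higher, and the class I median 0.18. In that fit 6 members fell, which were H2-DMb1 by 1.27 (adjusted p = 0.0152), H2-Aa, H2-Ab1, H2-Eb1, H2-DMa and Cd74, the last 5 by 0.54 to 0.61 with adjusted p-values of 0.0299 to 0.0425. A further 4 rose, which were H2-Q10 by 1.41 (adjusted p = 0.00460), H2-Eb2 by 0.99, H2-Ob by 0.97 and H2-Q7 by 0.82. That fit called 3.02% of all genes as lower and 1.72% as higher. Without sunitinib replicate 1 instead, where the lone library was again assumed to vary like the vehicle pair, 26 of 34 members passed as higher and 0 as lower, where 16.1% and 11.6% of all genes did, and the class II median was 1.07. The sign of the main class II chains in inguinal fat therefore rested on which sunitinib library was kept.

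In liver, the 3 class II chains and Cd74 were lower in both sunitinib libraries, and none passed. In limma 0 of 30 tested members passed as lower, where 0.0726% of all genes did, and 0 as higher, where 0.121% did. Unadjusted, 11 members had a p below 0.05 as lower and 0 as higher, where 641 and 430 of all 12394 genes did. H2-Eb1 read 7.54 and 7.75 in the vehicle libraries and 7.14 and 7.01 in the sunitinib libraries (−0.57 ± 0.09, adjusted p = 0.0534). H2-Aa read 7.90 and 8.20 under vehicle and 7.56 and 7.37 under sunitinib (−0.58 ± 0.11, adjusted p = 0.09996). Cd74 read 8.59 and 8.95 under vehicle and 8.33 and 8.14 under sunitinib (−0.53 ± 0.12, adjusted p = 0.161). H2-Ab1 read 7.46 and 7.72 under vehicle and 7.32 and 7.01 under sunitinib (−0.42 ± 0.12, adjusted p = 0.288). In all 4 the groups did not overlap, and the sunitinib library named replicate 4 was the lowest. H2-Eb1 passed in other fits, at an adjusted p of 0.0487 when each library was centred on its median and 0.0447 with robust empirical Bayes. Fits that leave out 1 library set 1 library against 2 and assume that the lone library varies like the pair of the other group. In those fits H2-Eb1 had an adjusted p of 4.75e-06 without replicate 3, 0.000355 without replicate 4, 0.000767 without vehicle replicate 1 and 0.0359 without vehicle replicate 2. H2-Aa and Cd74 passed without the first 3 of these libraries, and H2-Ab1 without replicate 3 and without vehicle replicate 1. These fits called between 0.234% and 2.25% of all genes as lower.

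The remaining class II genes of liver stood closer to the limit for testing and had smaller differences. Ciita read 3.30 and 3.22 under vehicle and 3.13 and 3.14 under sunitinib (−0.12 ± 0.03). H2-DMa read 4.85 and 4.88 under vehicle and 4.77 and 4.75 under sunitinib (−0.10 ± 0.05). H2-DMb1 read 3.63 and 3.64 under vehicle and 3.63 and 3.64 under sunitinib (−0.0036 ± 0.03). The rlog scale shrinks differences most where reads are few, so these values may understate a change. Of 9 tested class II genes 7 lay below vehicle without overlap, against 19.2% of all genes, and their median was −0.12. Macrophage markers summed to 10.95 and 11.26 under vehicle and 11.10 and 10.87 under sunitinib, which overlap, with a median marker difference of −0.10. The sum of the class II genes was 10.06 and 10.33 against 9.79 and 9.60, which did not overlap. The 3 tested dendritic cell markers (of 10) summed to 6.51 and 6.55 against 6.48 and 6.44.

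The class I genes of liver had differences between −0.22 and 0.02. Of 21 tested, 11 lay below vehicle without overlap and 0 above, against 19.2% and 18.3% of all genes, and the median was −0.11. H2-K1 read 14.45 and 14.48 under vehicle and 14.34 and 14.32 under sunitinib. H2-D1 read 11.21 and 11.13 under vehicle and 11.12 and 10.98 under sunitinib. B2m read 13.81 and 13.82 under vehicle and 13.73 and 13.72 under sunitinib. These 3 were lower in both sunitinib libraries, by 0.09 to 0.13. Tap1 read 8.71 and 8.64 under vehicle and 8.47 and 8.55 under sunitinib (−0.16 ± 0.07). Tapbp read 9.82 and 9.79 under vehicle and 9.71 and 9.68 under sunitinib (−0.11 ± 0.07), both without overlap. Tap2 read 7.72 and 7.59 under vehicle and 7.63 and 7.59 under sunitinib. Nlrc5 read 8.19 and 8.03 under vehicle and 8.02 and 8.03 under sunitinib. Both had overlapping groups, as had the immunoproteasome subunits. Psmb8 read 8.27 and 8.33 under vehicle and 8.35 and 8.24 under sunitinib. Psmb10 read 8.92 and 8.80 under vehicle and 8.80 and 8.66 under sunitinib. H2-Q10 read 15.18 and 15.16 under vehicle and 14.90 and 15.07 under sunitinib (−0.19 ± 0.08, adjusted p = 0.551).

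In brown fat the classes lay on either side of vehicle, and no member passed. In limma 0 of 26 tested members passed in either direction, as did 0% of all genes tested as lower and 0% as higher. Unadjusted, 3 members had a p below 0.05 as lower and 5 as higher, where 910 and 1191 of all 13044 genes did. The 8 tested class II genes had a median difference of −0.17, 5 of them below vehicle without overlap and 0 above. The 17 class I genes had a median of 0.11, 8 of them above and 0 below. Of all genes 24.0% lay below and 26.2% above. The smallest adjusted p of any member was 0.232, for H2-T23.

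Among the class II genes of brown fat, H2-Aa read 9.02 and 9.34 under vehicle and 8.84 and 8.97 under sunitinib (−0.28 ± 0.12). H2-Ab1 read 8.05 and 8.32 under vehicle and 7.81 and 7.96 under sunitinib (−0.30 ± 0.11). H2-Eb1 read 8.89 and 9.16 under vehicle and 8.78 and 8.85 under sunitinib (−0.21 ± 0.10). Their groups did not overlap, and in each of them the vehicle libraries were further apart than the sunitinib libraries. Cd74 read 9.34 and 9.66 under vehicle and 9.05 and 9.36 under sunitinib, with 1 sunitinib library above 1 vehicle library. Ciita read 4.27 and 4.35 under vehicle and 4.18 and 4.17 under sunitinib (−0.14 ± 0.05). H2-DMb1 read 3.97 and 3.96 under vehicle and 3.82 and 3.83 under sunitinib (−0.13 ± 0.04), while H2-DMa read 5.34 and 5.49 under vehicle and 5.23 and 5.34 under sunitinib. Macrophage markers summed to 11.16 and 11.44 against 10.996 and 11.06, so they were lower in the same libraries. The 5 tested dendritic cell markers (of 10) summed to 8.69 and 8.50 against 8.88 and 8.75, which was above vehicle in both sunitinib libraries. Yet 3 of the 5 had negative differences, and the median marker difference was −0.03. Without overlap 2 of them lay below vehicle and 1 above, where 24.0% and 26.2% of all genes did. The part of either list was not tested. Without vehicle replicate 1, where the lone vehicle library was assumed to vary like the sunitinib pair, H2-Aa, H2-Ab1, H2-Eb1 and Cd74 passed as lower and Tap2 as higher, in a fit that called 6.28% of all genes as lower and 3.61% as higher. The class II median was −0.28 in that fit and −0.11 without vehicle replicate 2, against −0.17.

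The class I genes above vehicle in brown fat included the classical chains and the loading genes. H2-T23 read 7.54 and 7.53 under vehicle and 7.85 and 7.74 under sunitinib (0.26 ± 0.07). Tap2 read 7.48 and 7.38 under vehicle and 7.71 and 7.67 under sunitinib (0.26 ± 0.07, adjusted p = 0.233). H2-D1 read 9.83 and 10.09 under vehicle and 10.23 and 10.23 under sunitinib (0.27 ± 0.10). H2-K1 read 11.34 and 11.45 under vehicle and 11.56 and 11.54 under sunitinib (0.16 ± 0.07). In these 4 genes both sunitinib libraries were above both vehicle libraries, as they were for Tapbp, at 9.62 and 9.60 under vehicle and 9.78 and 9.77 under sunitinib, and for Psmb10, at 7.78 and 7.81 under vehicle and 7.94 and 8.02 under sunitinib. In Tap1, Psmb8, B2m and Nlrc5 the groups overlapped. Tap1 read 6.93 and 6.76 under vehicle and 6.88 and 7.04 under sunitinib. Psmb8 read 6.26 and 6.27 under vehicle and 6.50 and 6.24 under sunitinib. The light chain and the regulator varied more within the vehicle pair than between groups. B2m read 11.15 and 11.45 under vehicle and 11.40 and 11.39 under sunitinib. Nlrc5 read 6.59 and 6.87 under vehicle and 6.68 and 6.55 under sunitinib. H2-D1 passed as higher without vehicle replicate 2, at an adjusted p of 0.0167, in a fit with a lone vehicle library that called 2.72% of all genes as higher.

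The difference between tissues in the response to sunitinib was tested for each of the 6 pairs with an interaction contrast in limma. Between brown and epididymal fat 6 of 25 members passed, where 3.64% of all genes did. All 6 were above vehicle or nearer to it in brown fat. The sunitinib effect was higher in brown fat by 1.01 ± 0.14 for H2-DMb1 (adjusted p = 0.0139), by 0.83 ± 0.13 for H2-K1 (adjusted p = 0.0218) and by 0.64 ± 0.08 for Psmb10 (adjusted p = 0.00972). It was higher by 0.60 ± 0.12 for H2-D1 (adjusted p = 0.0412), by 0.59 ± 0.10 for Tapbp (adjusted p = 0.0241) and by 0.56 ± 0.10 for H2-T23 (adjusted p = 0.0267). In the same contrast H2-D1 missed the threshold without a filter on low values (adjusted p = 0.0588) and after quantile normalization (0.0645). Of these 6 genes 5 belong to class I. Each of the 5 was above vehicle in both brown fat libraries and below vehicle in both epididymal libraries. H2-DMb1, the class II gene among them, had a mean rlog of 3.89 in brown fat, close to the limit for testing. In epididymal fat its mean was 8.61. The rlog scale shrinks differences most where reads are few, so its value in brown fat may understate a change. The part of that in its difference between these tissues was not tested. For H2-Eb1 the difference was 0.76 ± 0.18 (adjusted p = 0.0670) and for H2-Aa 0.71 ± 0.22 (adjusted p = 0.122), so the main class II chains were not shown to differ between these tissues.

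Between epididymal fat and liver 1 of 28 members passed, below the 3.95% of all genes. This was H2-DMb1, whose effect was lower in epididymal fat by 1.14 ± 0.14 (adjusted p = 0.00389), from a liver level close to the limit of 3. For H2-Eb1 the effects in epididymal fat and liver differed by −0.40 ± 0.17 (adjusted p = 0.256). In the other 4 pairs 0 members passed in limma. Of brown fat, 25 members were tested against inguinal fat and 24 against liver. Of inguinal fat, 31 were tested against epididymal fat and 29 against liver. Of all genes 0.0314%, 0%, 0% and 0.0430% passed in these pairs. The pairs with inguinal fat carry the wide spread of its sunitinib pair: for H2-Eb1 the epididymal and inguinal effects differed by −1.12 ± 0.58. The pairs share the libraries of a tissue. The count between brown and epididymal fat was 1 without either brown fat sunitinib library, 2 without either epididymal vehicle library, 3 without epididymal sunitinib replicate 1 and 11 without replicate 2, in fits that called between 0.640% and 3.51% of all genes. Without inguinal sunitinib replicate 2 the counts were 3 against brown fat and 6 against liver, and without replicate 1 they were 18 against brown fat, 29 against epididymal fat and 25 against liver. Of all genes 3.22% and 7.37% passed in the former fits, and 19.1%, 21.3% and 26.2% in the latter. Without epididymal sunitinib replicate 1 or 2 the count against liver was 5 or 8, where 6.01% or 5.88% of all genes passed.

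**Figure D4:**
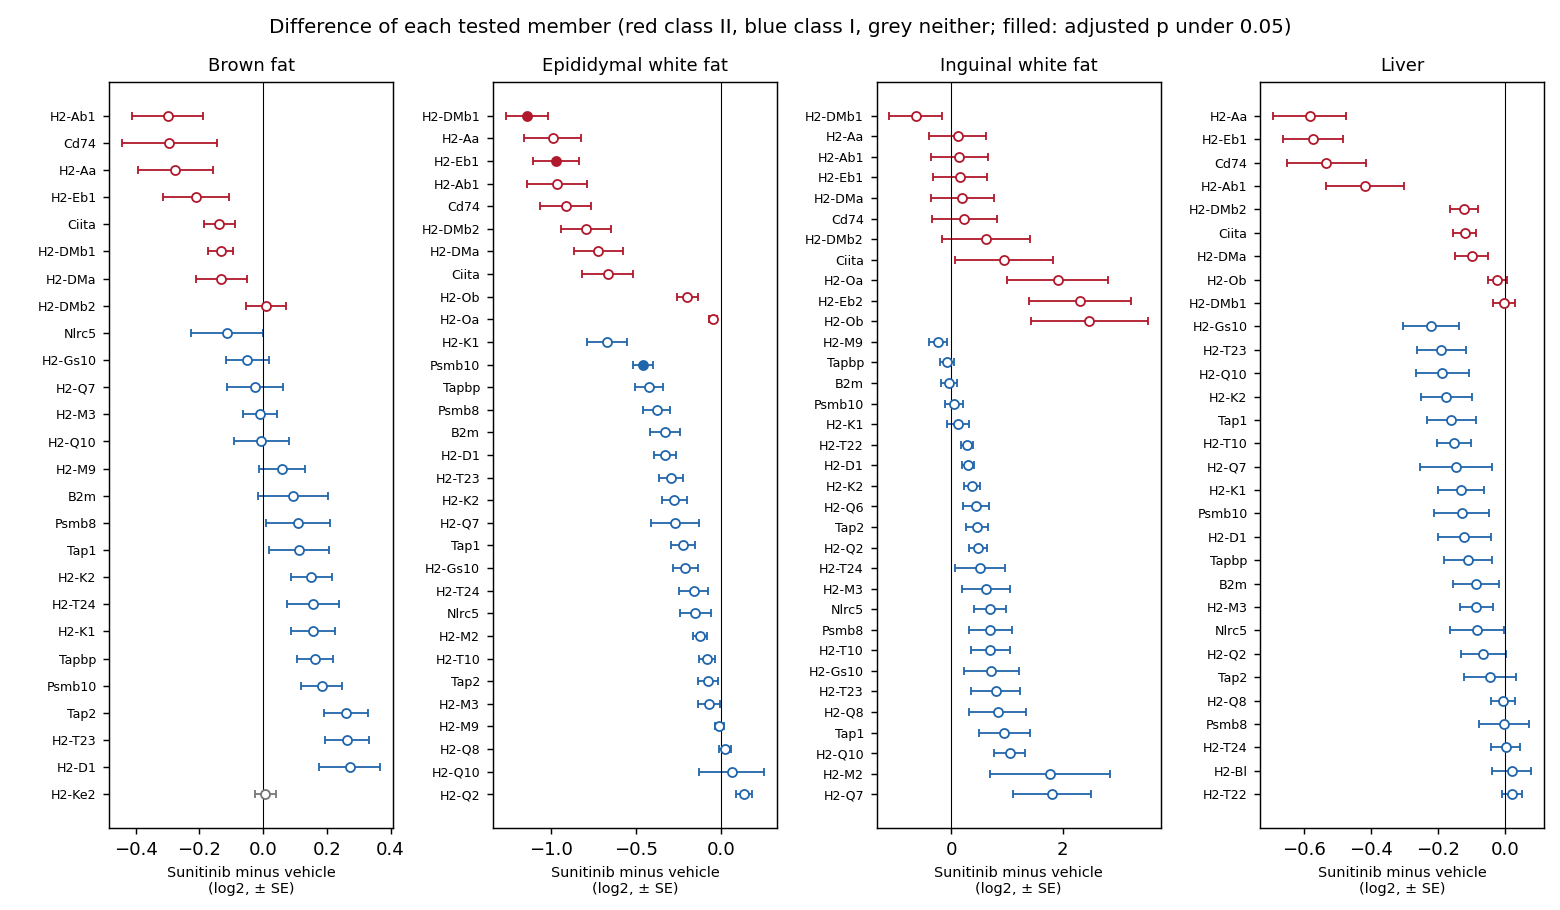
Points are log2 differences, sunitinib minus vehicle, of every tested member in the 4 tissues (class II in red, class I in blue, filled where the member passed), with bars of ±1 SE from limma and a horizontal scale of its own in each panel. In epididymal fat H2-DMb1, H2-Eb1 and Psmb10 passed, at −1.14, −0.97 and −0.46, and the widest bars are those of inguinal fat, with an SE of 1.05 for H2-Ob.

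A list of 37 other antigen presentation genes held the lysosomal proteases, the chaperones of class I folding, the constitutive proteasome subunits, the RFX and NF-Y factors, the interferon gamma pathway and costimulatory molecules. In epididymal fat 3 of 36 tested genes fell, where 2.06% of all genes did, and 0 rose, and all 3 act on class II in the lysosome. Ctss, cathepsin S, which trims the invariant chain, read 12.37 and 12.24 in the vehicle libraries and 10.90 and 11.16 in the sunitinib libraries and fell by 1.28 ± 0.11 (adjusted p = 0.0197). Lgmn, the asparaginyl endopeptidase, read 12.12 and 12.23 under vehicle and 11.33 and 11.33 under sunitinib and fell by 0.84 ± 0.07 (adjusted p = 0.0180), and Ifi30, the thiol reductase GILT, read 9.93 and 10.04 under vehicle and 9.15 and 9.29 under sunitinib and fell by 0.77 ± 0.08 (adjusted p = 0.0266). The median of the list was −0.07, with 16 of 36 below vehicle without overlap, where 26.8% of all genes were. Of the interferon gamma pathway, the receptor chain gene Ifngr2 differed by −0.32 ± 0.06 (adjusted p = 0.0717) and Irf1 by −0.21 ± 0.07. The RFX subunit genes Rfx5, Rfxap and Rfxank, whose products bind the X box shown above, differed by 0.03, 0.00 and 0.03, all with overlapping groups. In brown fat, inguinal fat and liver 0 of 35, 36 and 34 tested genes passed in limma. Unadjusted, 3 had a p below 0.05 as lower and 9 as higher in brown fat, 2 and 2 in inguinal fat, and 1 and 4 in liver. Over all genes these counts were 910 and 1191 of 13044, 1313 and 578 of 14916, and 641 and 430 of 12394. The smallest adjusted p of the list in these tissues was 0.0534, for the chaperone Hspa5 in liver. It read 13.08 and 13.32 under vehicle and 13.74 and 13.92 under sunitinib (0.63 ± 0.10). The list was written with earlier results of these data known, so it is not independent of them.

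Members outside these accounts were few. H2-Ke2 and H2-Ke6 carry the H2- prefix from their place in the region but encode a prefoldin subunit and a hydroxysteroid dehydrogenase. Of the pair only H2-Ke2 in brown fat was tested, at 3.13 and 3.13 under vehicle and 3.11 and 3.16 under sunitinib. The 6 members tested in no tissue were H2-Ke6, H2-Ea-ps, H2-M5, H2-M6-ps, H2-M11 and H2-T9. C57BL/6 mice are known to carry a deletion in the promoter of the H2-E alpha chain gene, and H2-Ea-ps was listed in inguinal fat alone, with a mean of −1.05.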

How the data were processed

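The authors deposited regularized log2 (rlog) values per gene, 1 table per tissue, per the file headers. Without read totals, depth is unknown. The submitters' processing notes name the mm9 build, DESeq2, bedtools, TopHat2 2.1.1 and bcl2fastq 2.17.1.14, without their roles. The rlog scale shrinks values towards each gene's mean, most where reads are few. Groups came from sample titles, which number the sunitinib livers 3 and 4.

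Genes with a mean rlog of at least 3 in a tissue were fitted with limma 3.58.1 (R 4.3.3), with a variance trend and 2 residual degrees of freedom, two-sided, with Benjamini-Hochberg adjustment over all genes tested and a threshold of 0.05. An exact permutation test of 2 against 2 libraries cannot go below 0.333, so none is given. Tissue pairs were compared with interaction contrasts. "Without overlap" means that both sunitinib libraries lay on 1 side of both vehicle libraries. The fits were tested on simulated data.

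The members and the lists were chosen with earlier results of these data known. Named members were those called in a tissue or pair, the main class II and class I chains, loading, proteasome and regulator genes, and the 2 largest differences per tissue, while H2-Oa, H2-Eb2, H2-DMb2, H2-Q2 and others were added after their values were seen. Promoters were matched by symbol for 27 of 42 members in RefSeq (GRCm38.p6), and the 50-base words come from GENCODE M21 transcripts.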

Additional observations from a re-analysis of the deposited data

Results flagged for a closer look

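Each of the following members was set apart because its response to sunitinib differed between tissues in an interaction test (limma, adjusted over all genes tested in both tissues). Between brown and epididymal fat, the sunitinib effect in brown fat was higher by 0.60 for H2-D1 (adjusted p = 0.0412), by 1.01 for H2-DMb1 (adjusted p = 0.0139), by 0.83 for H2-K1 (adjusted p = 0.0218), by 0.56 for H2-T23 (adjusted p = 0.0267), by 0.64 for Psmb10 (adjusted p = 0.00972) and by 0.59 for Tapbp (adjusted p = 0.0241). Between epididymal fat and liver, the effect on H2-DMb1 differed by −1.14 (adjusted p = 0.00389). The H2-D1 interaction missed the threshold in limma without a filter on low values (adjusted p = 0.0588) and after quantile normalization (0.0645). With 2 libraries per group and tissue, these tests measure the spread between libraries only. The tables were normalized separately per tissue, and the part of that in these differences was not tested. H2-DMb1 stood close to the limit for testing in brown fat (mean rlog 3.89) and in liver (3.63), against 8.61 in epididymal fat. The rlog scale shrinks differences most where reads are few, and the part of that in the H2-DMb1 results was not tested.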

How the results depend on the processing

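No value called in the reported fit changed its sign under the alternatives run. In inguinal fat, where that fit called no member, the class II median changed its sign without sunitinib replicate 2. There H2-Aa differed by −0.61 without sunitinib replicate 2 and by 0.84 without replicate 1. H2-Ab1, H2-Eb1, Cd74 and H2-DMa also had opposite signs in those fits. Leaving out 1 library at a time moved most counts of members. In brown fat the count called lower ran from 0 to 4 and that called higher from 0 to 1. In epididymal fat these counts ran from 0 to 11 and from 0 to 1, in inguinal fat from 0 to 6 and from 0 to 26, and in liver the count called lower from 1 to 4. The counts of members that differed between tissues ran from 1 to 11 for brown against epididymal fat, 0 to 18 for brown against inguinal fat, 0 to 29 for epididymal against inguinal fat, 1 to 8 for epididymal fat against liver and 0 to 25 for inguinal fat against liver. The highest counts with inguinal fat came without its sunitinib replicate 1, which leaves replicate 2. That library had the highest inguinal sums of B cell markers (13.53) and of T and NK cell markers (11.66), and their part was not tested. The leave-one-out fits of these tissue pairs were chosen after seeing the data.

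Median differences also ranged when 1 library was left out. The class I median ran from 0.10 to 0.14 in brown fat, −0.25 to −0.13 in epididymal fat, 0.18 to 0.76 in inguinal fat and −0.12 to −0.080 in liver. The class II median ran from −0.28 to −0.11 in brown fat, from −0.54 to 1.07 in inguinal fat and from −0.16 to −0.13 in liver.

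In epididymal fat 1 member was called lower without a filter on low values, 6 with a mean rlog of at least 5, 5 with robust empirical Bayes and 8 with the replicate block, against 3 in the reported fit. Those fits called 0.845%, 3.71%, 3.07% and 2.73% of all genes as lower, against 2.06%. In inguinal fat 7 were called higher in 1 fit over the 4 tissues, as were 10.8% of all genes. In liver 1 was called lower after median centring and 1 with robust empirical Bayes, against 0, where 0.105% of all genes were in each. The class I median of brown fat was 0.040 without the filter, 0.15 with a mean of at least 5 and 0.16 without the other class I paralogs, and that of epididymal fat −0.12 without the filter and −0.33 without those paralogs. The class II median of liver was −0.55 with a mean of at least 5, which keeps 4 genes. The cause of the changes in counts was not tested.

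The libraries share a replicate number and nothing in the labels says that it pairs them. Deviations of same-numbered libraries correlated at −0.26 in brown fat, 0.22 in epididymal fat and 0.11 in inguinal fat. With the replicate block 0 members passed as lower in brown and in inguinal fat. With the numbers of brown fat crossed, which was chosen after seeing the data, 0 passed as lower. The sunitinib livers share no number with the vehicle livers. Depth is unknown, so how far it limits members with few reads was not tested.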
